A study of Mus musculus with 10 samples.

Results

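The family of miR-143 and miR-145 was followed on every array by 5 reporters of the 1892 miRNAs printed: mmu-miR-143-3p, mmu-miR-143-5p, mmu-miR-145a-5p, mmu-miR-145a-3p and mmu-miR-145b. They were chosen by name, as all reporters with the stem miR-143, miR-145a or miR-145b, and not by any measured value. The 10 one-colour arrays came from 5 samples titled T-C cell and 5 titled control cell. According to the labels, all samples are RNA of male mice from liver, in a mouse liver cell culture protocol, and both groups carry the description sle liver. The T-C cell samples have the source Col-/-, and their protocol states that dishes of 100000 T-C cells received 0.5 mg TN-CF each and were kept for 24 hours. The control cell samples have the source Control Col. Treatment and source therefore changed together and cannot be told apart. The series' design text writes TB-CF where the protocol writes TN-CF, and the labels spell out neither name, nor T-C, Col or sle. Whether the replicates of a group were separate animals or separate cultures is not stated, and each p-value below measures only the spread among these arrays, possibly a technical one. In bulk RNA, fewer cells of a type and less of a miRNA per cell cannot be told apart.

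miRNAs are short RNAs that guide Argonaute proteins to complementary sites in messenger RNAs and lower their output, with the seed near the 5′ end contributing most of the pairing. Each hairpin can yield a 5p and a 3p strand, of which 1 usually accumulates and the other is mostly degraded. miR-143 and miR-145 are processed from a shared primary transcript that serum response factor and its coactivator myocardin switch on in smooth muscle. miR-145 represses Klf4 and Klf5, miR-143 represses Elk1, and the pair favours the contractile state of smooth muscle cells. In solid organs the pair is known mainly from mesenchymal cells such as smooth muscle, pericytes and fibroblasts, and not from epithelium.

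In the GENCODE M21 annotation of mouse build GRCm38, Mir145a lies on the minus strand of chromosome 18 at 61647825 to 61647894. Mir143 lies on the same strand at 61649196 to 61649258, with 1301 bases between the hairpins. The long non-coding RNA gene Carmn, known as the host of the cluster, runs from 61645878 to 61665538 in RefSeq (GRCm38.p6) and there spans both hairpins. In GENCODE M21 Carmn starts at 61649625 and reaches neither of them. Mir145b is not part of this cluster: it lies on the minus strand of the same chromosome at 69022199 to 69022273, which leaves 7372940 bases between it and Mir143, and GENCODE M21 has no other gene over it. The mature miR-145a-5p of 23 nucleotides and miR-145b of 21 nucleotides share their first 17 bases, the seed included. How much of either reporter's signal came from the other miRNA is uncertain and was not tested.

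Levels are the median intensity of a spot, a linear scanner brightness averaged over the 2 spots of each miRNA. A miRNA counted as detected on an array where this mean exceeded the mean of the blank spots by 3 SD. That limit ran from 64.0 (control cell replicate 5) to 474 (T-C cell replicate 3), and between 189 and 1314 miRNAs were detected per array, the fewest on T-C cell replicate 3. Over 476 miRNAs, the median correlation of an array with the others was 0.824 for T-C cell replicate 1 and 0.876 for T-C cell replicate 3, against 0.901 to 0.936 for the other arrays. Differences of the tested members between groups are given with and without these 2 arrays, and correlations with other miRNAs only with them. Precision is limited throughout by having 5 arrays in each group.

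miR-145a-5p, the strand of the miR-145a hairpin that accumulates, was the brightest family member on every array. In T-C cell replicates 1 to 5 its raw intensity was 19103, 18654, 27162, 26607 and 15029. In control cell replicates 1 to 5 it was 21083, 18326, 19188, 22295 and 20666. The group means were 21311 ± 5331 and 20312 ± 1570 (SD, n = 5 each), and the groups overlapped, with both the highest and the lowest arrays among the T-C cell samples. It ranked between 2 and 7 among all miRNAs of an array and was at least 57.3 times the detection limit.

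miR-143-3p, the accumulating strand of the miR-143 hairpin, followed closely. Its raw intensity in T-C cell replicates 1 to 5 was 14106.5, 15895, 22009, 23278 and 10434. In control cell replicates 1 to 5 it was 18281, 15277, 18422, 17588 and 17397. Again replicates 3 and 4 were the highest and replicate 5 the lowest of the T-C cell arrays, while the control cell arrays lay between these extremes. The T-C cell mean was 17145 ± 5411 and the control cell mean 17393 ± 1261 (SD, n = 5 each), and the rank among all miRNAs was 3 to 9.

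miR-145b, whose seed is that of miR-145a-5p, was next in brightness. Its raw intensity was 15384, 14002.5, 8099, 21486.5 and 10682 in T-C cell replicates 1 to 5, and 11428, 9489, 9795, 16123 and 14909.5 in control cell replicates 1 to 5. T-C cell replicate 3, the brightest array for miR-145a-5p, was the dimmest for miR-145b. The means were 13931 ± 5093 and 12349 ± 3014 (SD, n = 5 each), and miR-145b exceeded miR-143-3p on 2 of 10 arrays, T-C cell replicates 1 and 5.

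The opposite strand of miR-145a, miR-145a-3p, was dimmer than these 3 on every array but still detected on all 10. Its raw intensity was 1099, 1277, 740, 1378 and 846 in T-C cell replicates 1 to 5, and 908, 699, 809, 1379 and 990 in control cell replicates 1 to 5. The groups covered nearly the same range, with means of 1068 ± 273 and 957 ± 260 (SD, n = 5 each). On T-C cell replicate 3 it was only 1.56 times that array's detection limit.

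miR-143-5p, the opposite strand of miR-143, lay at the level of the blanks. It read 172, 128, 320, 161 and 181 on T-C cell replicates 1 to 5 and 137, 218, 205, 168 and 88.3 on control cell replicates 1 to 5. It passed the detection limit on 2 of 10 arrays, T-C cell replicate 1 and control cell replicate 5, and lay below the mean of the blank spots on 3. It was therefore not among the miRNAs tested. The only other reporter with its seed, miR-1930-3p, was likewise detected on 2 arrays. Its raw intensity over all 10 arrays was 95.7 to 321.

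**Figure D1:**
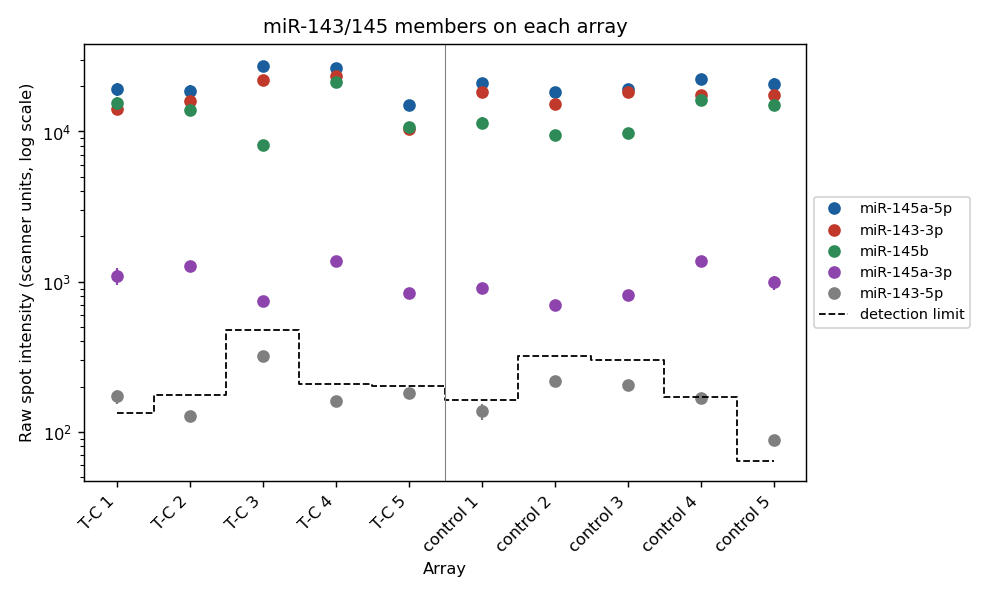
Raw spot intensity (log scale) of the 5 family members on each of the 10 arrays, with points for the mean of 2 spots, thin bars joining the spots and a dashed line for the detection limit of the array. miR-145a-5p and miR-143-3p sit between 10434 and 27162 on all arrays, miR-145b drops to 8099 on T-C cell replicate 3, and miR-143-5p stays at or under the limit on 8 of 10 arrays.

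The order of brightness in the family was thus miR-145a-5p, miR-143-3p, miR-145b, miR-145a-3p and miR-143-5p. Brightness also depends on the probe, so the order is one of signal and not of molecule number. miR-145a-5p exceeded miR-143-3p on 10 of 10 arrays, but their ranges overlapped, as did those of miR-143-3p and miR-145b. The range of miR-145b, 8099 to 21486.5, lay wholly above that of miR-145a-3p, 699 to 1379, which in turn lay above that of miR-143-5p, 88.3 to 320. The second spot of a member was brighter than the first in 49 of 50 pairs, by a median ratio of 1.13, while over all detected miRNAs the median ratio of an array was 0.949 to 1.11.

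The first comparison asked whether any member differed between treated T-C cells and control cells. None of the 4 tested members passed: on the scale of log2(intensity + 50) after cyclic loess normalization, every 95% interval included 0. The estimates lay between −0.041 and 0.15, next to a median of 0.019 over all tested miRNAs, and the median of the 4 members was 0.071. With limma, 0 of 4 members had an adjusted p under 0.05, where 37 of 476 tested miRNAs, or 7.77%, did so in either direction. At an unadjusted p of 0.05 the count of members was also 0, and the share of all tested miRNAs at that threshold was not counted. Likewise 0 of 4 members had groups that did not overlap, where 18 of 476, or 3.78%, did. At such shares a count of 0 among 4 members is near the background.

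The normalized log2 level of miR-143-3p was 13.87, 13.75, 14.46, 14.04 and 13.64 on T-C cell replicates 1 to 5 and 13.91, 14.04, 14.15, 14.05 and 13.82 on control cell replicates 1 to 5. The T-C cell arrays held both extremes, and the groups overlapped. The means were 13.95 ± 0.32 and 13.99 ± 0.13 (SD, n = 5 each), a difference of −0.041 (SE 0.17, 95% interval −0.40 to 0.32, limma adjusted p = 0.930). As a fold this is 0.972, with an interval of 0.756 to 1.25. The direction turned when T-C cell replicate 1 (0.036) or 5 (0.060) was left out, and leaving out T-C cell replicate 3 gave −0.17.

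miR-145a-5p had normalized log2 levels of 14.37, 13.95, 14.74, 14.22 and 14.18 on T-C cell replicates 1 to 5 and 14.11, 14.31, 14.20, 14.37 and 14.05 on control cell replicates 1 to 5. T-C cell replicate 3 was the highest of all arrays and T-C cell replicate 2 the lowest. The means were 14.29 ± 0.29 and 14.21 ± 0.13 (SD, n = 5 each), a difference of 0.083 (SE 0.16, 95% interval −0.27 to 0.43, limma adjusted p = 0.852), or a fold of 1.06 (0.831 to 1.35). Without T-C cell replicate 3 the difference was −0.032, and it was also below 0 with quantile normalization (−0.11) and median centring (−0.073), so no direction can be given.

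For miR-145b the levels were 13.91, 13.61, 13.06, 13.93 and 13.66 on T-C cell replicates 1 to 5 and 13.25, 13.35, 13.23, 13.94 and 13.63 on control cell replicates 1 to 5. Apart from replicate 3, the T-C cell arrays lay in the upper part of the control cell range. The means were 13.64 ± 0.35 and 13.48 ± 0.30 (SD, n = 5 each), a difference of 0.15 (SE 0.20, 95% interval −0.28 to 0.59, limma adjusted p = 0.766), or a fold of 1.11 (0.821 to 1.51). With 1 array left out at a time the difference ran from 0.068 without control cell replicate 1 (limma adjusted p = 0.929) to 0.30 without T-C cell replicate 3 (limma adjusted p = 0.412). Omitting T-C cell replicate 4 gave 0.088, and omitting control cell replicate 3 or 4 gave 0.096 or 0.26.

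miR-145a-3p read 9.59, 10.60, 9.94, 10.15 and 9.91 on T-C cell replicates 1 to 5 and 9.91, 9.62, 9.70, 10.55 and 10.10 on control cell replicates 1 to 5. The groups overlapped over nearly their whole range. The means were 10.04 ± 0.37 and 9.98 ± 0.37 (SD, n = 5 each), a difference of 0.060 (SE 0.23, 95% interval −0.44 to 0.56, limma adjusted p = 0.930), or a fold of 1.04 (0.739 to 1.47). Its sign turned when T-C cell replicate 2 (−0.087), control cell replicate 2 (−0.034) or control cell replicate 3 (−0.012) was left out. With both T-C cell replicates 1 and 3 left out, 0 of 4 members passed, and the differences were −0.12 for miR-143-3p, −0.021 for miR-145a-5p, 0.31 for miR-145b and 0.25 for miR-145a-3p.

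**Figure D2:**
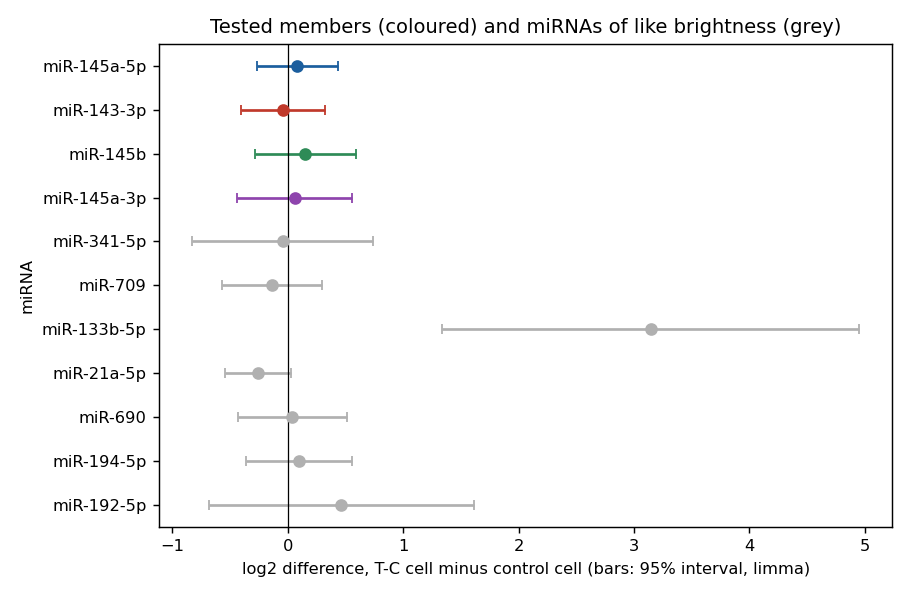
Difference in normalized log2 level, T-C cell minus control cell, with 95% intervals from limma, for the 4 tested members (coloured) and 7 other miRNAs nearest in mean brightness over all arrays to miR-143-3p, miR-145a-5p or miR-145b (grey). The intervals of the members all include 0 and lie between −0.44 and 0.59, while miR-133b-5p stands at 3.14.

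The groups also overlapped before any normalization. Over all 252 divisions of the arrays 5 against 5, the exact two-sided permutation p of the raw intensity was 0.698 for miR-145a-5p, 0.956 for miR-143-3p, 0.607 for miR-145b and 0.524 for miR-145a-3p, and 0.931 to 0.956 after Benjamini-Hochberg adjustment over these 4. The spread of the main strands was unequal between the groups. The SD of the normalized level in T-C cell samples was 2.53 times that in control cell samples for miR-143-3p and 2.17 times for miR-145a-5p, against 1.00 for miR-145a-3p and 1.16 for miR-145b. Without T-C cell replicate 3 the T-C cell SD fell from 0.32 to 0.17 for miR-143-3p and from 0.29 to 0.18 for miR-145a-5p, nearer to the 0.13 of both in control cell samples. On raw intensities it moved less, from 5411 to 5401 for miR-143-3p and from 5331 to 4861 for miR-145a-5p. The raw SDs in control cell samples were 1261 and 1570. The difference in spread was not tested. When miR-143-5p was brought into a fit of all miRNAs, its difference was 0.028 (SE 0.076, 95% interval −0.14 to 0.19, limma adjusted p = 0.973), a value measured at the level of the blanks.

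The second comparison concerned the balance within the family, read as the log2 ratio of 2 members on the same array with no normalization between arrays. miR-143-3p and miR-145a-5p come from the same primary transcript. Their raw ratio was 0.738, 0.852, 0.810, 0.875 and 0.694 on T-C cell replicates 1 to 5 and 0.867, 0.834, 0.960, 0.789 and 0.842 on control cell replicates 1 to 5. It never reached 1, and the lowest values were those of T-C cell replicates 5 and 1. The mean log2 ratio was −0.34 ± 0.14 for the T-C cell arrays and −0.22 ± 0.10 for the control cell arrays (SD, n = 5 each). The difference of −0.11 did not pass (two-sided p = 0.198 by exact permutation, adjusted 0.794 over 4 ratios). With 1 array left out at a time it ran from −0.15 without T-C cell replicate 4 to −0.068 without T-C cell replicate 5. The smallest p that 5 arrays against 5 allow is 0.00794.

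The brightness of the 2 strands of a hairpin was compared in the same way, as a ratio of probe signals and not of molecules. miR-145a-5p was 14.6 to 36.7 times as bright as miR-145a-3p, with the highest ratio, 36.7, on T-C cell replicate 3 and 14.6 to 19.3 on the other T-C cell arrays. The control cell arrays ran from 16.2 to 26.2. The mean log2 ratios were 4.26 ± 0.50 and 4.37 ± 0.25 (SD, n = 5 each), a difference of −0.11 (two-sided p = 0.667 by exact permutation, adjusted 0.865). With 1 array left out at a time it ran from −0.33 without T-C cell replicate 3 (exact permutation p = 0.0794) to −0.0039 without T-C cell replicate 2 (exact permutation p = 0.984). Omitting T-C cell replicate 1 or 5 gave −0.066 or −0.068, and omitting control cell replicate 2 or 4 gave −0.053 or −0.21.

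miR-143-3p was 57.7 to 197 times as bright as miR-143-5p. miR-143-5p read at the blanks, so this ratio mostly compares miR-143-3p with the background of the array. The mean log2 ratio was 6.13 ± 0.51 for the T-C cell and 6.39 ± 0.43 for the control cell arrays (SD, n = 5 each), a difference of −0.26 (two-sided p = 0.405 by exact permutation, adjusted 0.810). It was −0.91 with the blanks subtracted and −0.069 on normalized values, and ran from −0.42 without T-C cell replicate 4 to −0.10 without T-C cell replicate 5.

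The ratio of miR-145b to miR-145a-5p was added after the values were seen. It was 0.805, 0.751, 0.298, 0.808 and 0.711 on T-C cell replicates 1 to 5 and 0.542, 0.518, 0.510, 0.723 and 0.721 on control cell replicates 1 to 5. T-C cell replicate 3 stood far below all others, and control cell replicates 1 to 3 lay below control cell replicates 4 and 5. It averaged −0.65 ± 0.61 on the log2 scale for the T-C cell and −0.75 ± 0.26 for the control cell arrays (SD, n = 5 each), a difference of 0.095 (two-sided p = 0.865 by exact permutation, adjusted 0.865). With 1 array left out at a time it ran from 0.0086 without T-C cell replicate 4 (exact permutation p = 0.992) to 0.37 without T-C cell replicate 3 (exact permutation p = 0.0556), all unadjusted. It was 0.0097 without T-C cell replicate 1, and 0.035 to 0.16 without each of the other arrays.

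**Figure D3:**
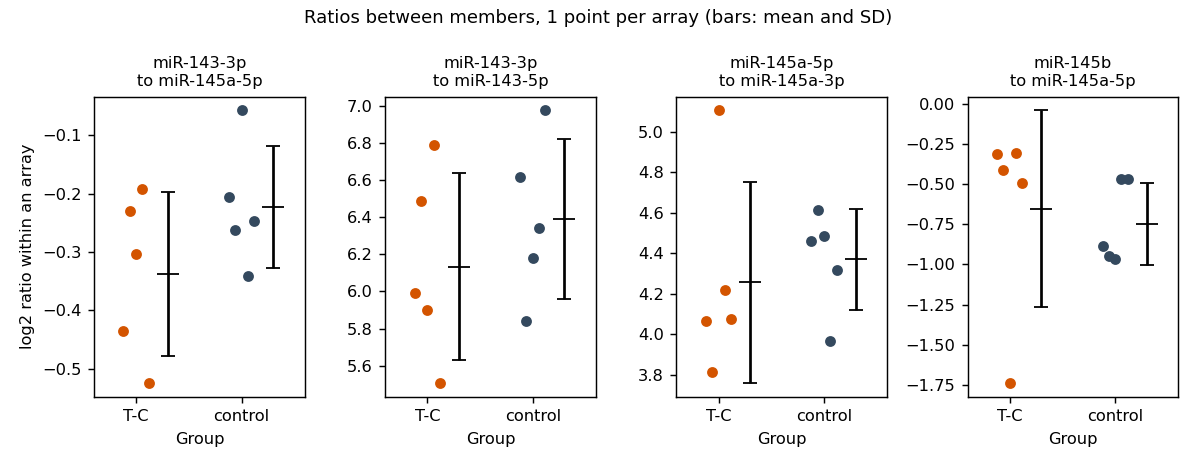
Log2 ratio of 2 members within an array, with no normalization, in 4 panels with an axis range of their own; each point is 1 array, and bars give the mean and SD of 5 arrays. The groups overlap in all 4 panels, and T-C cell replicate 3 is the point at −1.74 in the panel of miR-145b and the highest point in that of miR-145a-5p to miR-145a-3p.

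A further question was whether bright spots near the top of the scanner's range could hide a change. The highest value of a 16-bit scale is 65535, and the brightest spot of any kind on an array reached 51472 to 59307. The scanner is not given, so the 16-bit scale is assumed. Between 2 and 16 spots of any kind lay within 10% of the brightest on their array. Whether the scanner's ceiling lay below 65535 was not tested. The brightest member spot, always one of miR-145a-5p, was between 15810.5 and 28205, which is 24.1% to 43.0% of the 16-bit top and 29.4% to 53.6% of the brightest spot of that array. No member spot lay within 10% of the brightest spot of any kind on any array. Between 22 and 76 spots of any kind outshone every member on an array, among them the spots of 1 to 4 other miRNAs.

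T-C cell replicate 3 was the only array where a member came near the brightest miRNA spot. There that spot read 29644, and both spots of miR-145a-5p were within 10% of it, up to 93.0%. The same array had spots of other kinds as high as 51472, so its scale went on well above miR-145a-5p. With the spots near the brightest miRNA spot set aside, the difference was −0.034 for miR-145a-5p and −0.018 for miR-143-3p. The value of miR-145a-5p then lacked T-C cell replicate 3, while miR-143-3p kept all arrays and moved only through the normalization. With only the spots near the brightest spot of any kind set aside, no member spot was lost, and the differences were 0.078 and −0.046, again through the normalization alone.

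**Figure D4:**
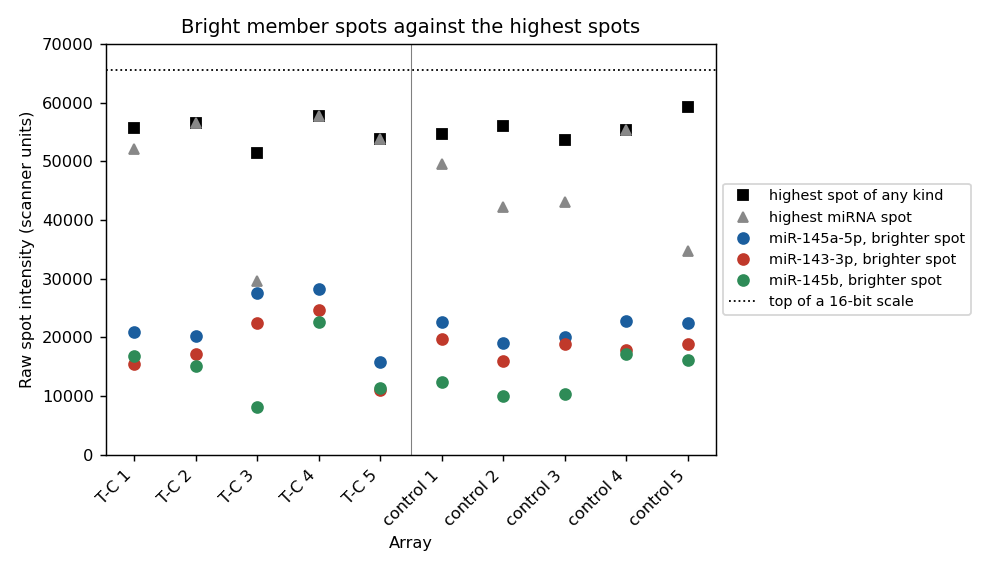
Raw intensity of the brighter spot of miR-145a-5p, miR-143-3p and miR-145b on each array, with the highest miRNA spot, the highest spot of any kind and the top of a 16-bit scale as a dotted line. All member spots stay at or under 28205, below the highest spots of any kind at 51472 to 59307, and on T-C cell replicate 3 miR-145a-5p lies just under the highest miRNA spot at 29644.

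The members lay among the brightest miRNAs of the arrays. By mean raw intensity over the 10 arrays, miR-341-5p (44169) and miR-709 (30426) lay above miR-145a-5p (20811) and miR-143-3p (17269). miR-133b-5p (16581) and miR-21a-5p (14324), a miRNA abundant in fibroblasts and many other cells, lay just below. Of the 8 tested miRNAs whose mean was at least that of miR-145b, 3 were miR-145a-5p, miR-143-3p and miR-145b themselves, and 1 passed. This was miR-133b-5p, the opposite strand of a muscle miRNA, which was higher in T-C cell samples by 3.14 on the log2 scale (limma adjusted p = 0.0419). Its raw intensity was 5408 to 48739 on the T-C cell arrays (median 30712) and 644 to 16567 on the control cell arrays (median 1090). It reached the brightness of the members through the T-C cell arrays, so its call does not show what could be seen at the intensity of the members.

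How the members moved together from array to array was described by Pearson's r of normalized log2 levels over the 10 arrays, which share their group, normalization and background. miR-143-3p and miR-145a-5p had r = 0.792 (Spearman's rho 0.709). It was 0.504 without T-C cell replicate 3 and 0.621 without T-C cell replicates 3 and 5, the arrays farthest from the median of miR-143-3p. miR-145b, which lies far from the cluster, had r = −0.502 with miR-143-3p and −0.243 with miR-145a-5p, and −0.171 and 0.352 without T-C cell replicate 3. The 2 strands of miR-145a had r = −0.293, or −0.389 without T-C cell replicate 3 and −0.012 without T-C cell replicates 3 and 2.

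Among all tested miRNAs, the 3 most like miR-143-3p were miR-103-3p (r = 0.895), miR-107-3p (0.865) and miR-24-3p (0.815). For miR-145a-5p they were miR-328-3p (0.792), miR-143-3p (0.792) and miR-214-3p (0.770), the last a mesenchymal miRNA. miR-145a-3p was most like the muscle miRNA miR-1a-3p (0.918), then miR-30a-3p (0.881) and miR-30c-5p (0.769). miR-145b was most like miR-26b-5p (0.891), miR-3963 (0.817) and miR-181b-5p (0.792). In the same order, Spearman's rho was 0.709, 0.745 and 0.733 for miR-143-3p, and 0.576, 0.709 and 0.491 for miR-145a-5p. It was 0.879, 0.855 and 0.794 for miR-145a-3p, and 0.842, 0.855 and 0.782 for miR-145b. Each r is over 10 arrays, and those with miRNAs outside the family were not computed without T-C cell replicates 1 and 3. None of these miRNAs passed the test between groups.

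The first 2 neighbours of miR-143-3p belong to 1 seed family, and their RefSeq mature sequences (GRCm38.p6), written 5′ to 3′ with the seed, bases 2 to 8, in capitals, show how alike they are.
miR-103-3p: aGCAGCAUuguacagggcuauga
miR-107-3p: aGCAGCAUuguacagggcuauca
The 23-base sequences differ at 1 position outside the seed, and how far their probes shared signal was not tested. Both were dimmer than miR-143-3p, at mean raw intensities of 2240 and 2142, and their differences between groups were 0.035 and 0.047 on the log2 scale (limma adjusted p = 0.937 and 0.929).

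Lists of miRNAs known from smooth muscle and fibroblasts, skeletal and cardiac muscle, epithelium, hepatocytes, endothelium and blood were set beside the family. The smooth muscle and fibroblast list, without the family itself, had 32 reporters, of which 18 were tested and 0 passed (2 at an unadjusted p of 0.05), with a median difference of −0.021. Its brightest member was miR-21a-5p, at −0.26 (limma adjusted p = 0.362). The 2 at an unadjusted p of 0.05 were miR-10b-5p at 0.70 and miR-100-5p at 0.58 (limma adjusted p = 0.185 and 0.110). These were the largest differences among the tested miRNAs of this list. miR-199a-3p, a mesenchymal miRNA, stood at 0.17 and miR-214-3p, from the same host transcript as miR-199a, at 0.028. The summed raw intensity of the 5 family members was 37171 to 72911 on the T-C cell and 44010 to 57552 on the control cell arrays, and that of this list was 54229 to 85746 and 59949 to 76595.

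The muscle list had 5 tested members of 15 reporters, of which miR-133b-5p passed, and its median difference was −0.058. The 3p strands miR-133a-3p and miR-133b-3p stood at −0.67 and −0.70 and did not pass (limma adjusted p = 0.119 and 0.0813), the opposite sign to miR-133b-5p. Of the cardiac miR-208 reporters, miR-208a-3p, miR-208b-3p and miR-208b-5p were detected on no array and miR-208a-5p on 3, at up to 322, and miR-1a-3p was at 0.25 (limma adjusted p = 0.712).

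Of the epithelial list 10 of 16 reporters were tested and 0 passed, adjusted or not, with a median of −0.13 and miR-200b-3p the brightest at a mean raw intensity of 9259. Of the hepatocyte list 7 of 13 were tested and 0 passed, adjusted or not, with a median of 0.092 and miR-194-5p the brightest at 12580. miR-122-5p, the miRNA that defines hepatocytes, read 101 to 193 on the T-C cell and 57.8 to 178 on the control cell arrays and was detected on 1 array, so the defining miRNA of the labelled tissue was near the blanks. The endothelial list had 1 tested member of 4, miR-126a-3p, at −0.01 and a mean raw intensity of 3547. Of the blood list 7 of 13 were tested (2 at an unadjusted p of 0.05), with a median of 0.34. Its brightest member, the lymphocyte miRNA miR-150-5p, passed at 0.86 (limma adjusted p = 0.0433), and the summed intensity of the list was 4363 to 8114 on the T-C cell and 3708 to 4977 on the control cell arrays. Over all tested miRNAs 7.77% passed, while their share at an unadjusted p of 0.05 was not counted. The part of these cell types in the family's levels was not tested.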

How the data were processed

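RNA of 10 samples, grouped by their titles, was profiled by LC Sciences: per the labels' protocols, 1 µg of total RNA taken with Trizol was poly(A)-tailed, ligated to a tag and stained with Cy3. Per the file headers, the authors deposited the median intensity of each spot, a linear brightness not scaled between arrays. Each array had 3968 spots, 3784 of them for miRNAs and 16 blank. The scanner, its image software and the miRBase release: not given in the sources used here. The headers carry a number for each array; only that of T-C cell replicate 1 lies below those of the control cell arrays, the other T-C cell numbers lie above, and what they count is not stated, so no batch was drawn from them.

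For this work 50 was added to each intensity, the mean log2 value of the 2 spots was taken, and cyclic loess put the arrays on a common scale (limma 3.58.1, R 4.3.3). miRNAs detected on at least 5 of 10 arrays were tested two-sided with limma (eBayes with trend). Adjusted p-values (Benjamini-Hochberg) are over all 476 tested miRNAs, and calls are at 0.05. Raw intensities and ratios were compared by exact permutation. The limma procedure was tested on simulated data with independent noise, smaller than that of the unnormalized arrays, and no outlying array. That test therefore cannot show how the procedure performs on these arrays. Members, lists, tests and alternatives were chosen with earlier results of these data known. The rule for other named miRNAs took the 3 most correlated with each tested member, the 2 above and 2 below miR-143-3p and miR-145a-5p in brightness, and the called and brightest members of each list; those around miR-145b and other list members were named after their values were seen. Alternatives were other added values, normalizations, background treatments, detection rules, single spots, a replicate block and arrays left out.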

Additional observations from a re-analysis of the deposited data

Results flagged for a closer look

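Among 28 sets of 5 arrays examined, 1 array lay far from the other 4 in 2 of them; chance does this in about 1 of 20 such sets. The raw intensity of miR-143-5p on T-C cell replicate 3 was 320, above the other T-C cell arrays at 128 to 181. It lay under the detection limit of that array, 474, which was also the highest limit of the series. The log2 ratio of miR-145b to miR-145a-5p on T-C cell replicate 3 was −1.74, below the other T-C cell arrays at −0.49 to −0.31. On that array miR-145a-5p was the brightest and miR-145b the dimmest of their T-C cell values, and both were above the detection limit.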

How the results depend on the processing

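Under all 25 alternatives to the limma fit, 0 of the 4 tested members passed. The differences ranged from −0.19 to 0.060 for miR-143-3p, −0.11 to 0.15 for miR-145a-5p, −0.087 to 0.26 for miR-145a-3p and 0.022 to 0.31 for miR-145b, with limma adjusted p from 0.412 to 0.999. Signs turned for 3 of them. miR-145a-5p was −0.11 with quantile normalization, −0.073 with median centring, −0.034 with spots near the highest miRNA spot left out, and −0.021 without both T-C cell replicates 1 and 3. miR-143-3p was 0.022 with blanks subtracted and 0.013 with the brighter spot alone. With 1 array left out at a time, miR-143-3p ran from −0.17 to 0.060, miR-145a-5p from −0.032 to 0.15, miR-145a-3p from −0.087 to 0.20 and miR-145b from 0.068 to 0.30. The log2 ratio of miR-145a-5p to miR-145a-3p became 0.024 on cyclic loess values. The causes of these turns were not tested. No ratio passed under any of its 18 alternatives, with unadjusted p of at least 0.0556 by exact permutation. For the replicate block of a ratio, the signs of the differences between same-numbered arrays were flipped instead. With 5 such differences that p cannot fall under 0.05, so this setting could not have passed. With a replicate block the differences stayed at −0.041, 0.083, 0.060 and 0.15 for miR-143-3p, miR-145a-5p, miR-145a-3p and miR-145b (limma adjusted p = 0.763 to 0.935), and 0 passed. Same-numbered arrays of the groups share only a number: the correlations of their deviations were −0.11, −0.20, 0.06, −0.11 and 0.26. The detection limit bounds what can be said of miR-143-5p, and the number of arrays bounds the rest.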
